A study of Mus musculus with 12 samples.

Results

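The comparison described here sets tumours of mice given both DSF and an anti-PD-1 antibody (the combination) against tumours of mice given DSF alone, and so reads what anti-PD-1 added to DSF. The groups were taken from the library titles. They make up 6 of the 12 libraries of the study, with 3 per group, and 14144 of the 18433 genes in the deposited table had enough counts to be tested.

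The study sequenced total RNA from flank tumours grown in BALB/c mice after subcutaneous injection of 4T1, a mouse mammary carcinoma line that originated in this strain. The mice were assigned at random to 4 arms, each of 5 animals: an untreated or vehicle control whose handling is not described, DSF by mouth, a blocking antibody against PD-1 given intraperitoneally, and both agents together. DSF is the usual abbreviation of disulfiram. The labels give no dose, schedule, age or time of collection, and do not say which 3 mice of each arm were sequenced. All groups share the same cell line, strain and injection site. The p-values below rest on the spread between libraries within groups, estimated over all 12 libraries.

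PD-1 is a receptor on T cells that restrains them when it binds PD-L1, and blocking antibodies lift that restraint. T cells and natural killer (NK) cells that are released in this way secrete interferon gamma, which induces antigen presentation genes, guanylate-binding proteins and chemokines in neighbouring cells. MHC class II molecules, which present peptides to CD4 T cells, are switched on by the transactivator Ciita. Disulfiram inhibits aldehyde dehydrogenases, and its metabolite binds copper. In bulk tumour RNA, fewer cells of a type and less RNA per cell cannot be told apart.

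The libraries held 13323171 to 16809705 counts each, and the coefficient of biological variation was 0.277. Some libraries stood apart by transcripts of tissue beside the tumour. In DSF replicate 2, adipocyte markers made up 1.38% of all counts (1.37 to 1.38% by the 95% Wilson interval, which covers counting error only), against 0.0231 to 0.103% in the other 11 libraries. Hair follicle and sebaceous gland markers took 0.688% in combination replicate 2 (0.684 to 0.693%) and 0.0221 to 0.0487% elsewhere. In combination replicate 2 none of the 24 hair follicle and sebaceous markers was at 0, against 6 to 11 of 24 in the DSF libraries. Epidermis markers, a list of 34 genes, took 0.177, 0.531 and 0.449% of the counts in combination replicates 1, 2 and 3, and 0.0613, 0.0509 and 0.0366% in DSF replicates 1, 2 and 3. So the epidermis share was higher in every combination library than in every DSF library. It was 0.0605 to 0.103% in controls and 0.0448 to 0.181% with anti-PD-1 alone. Its part in the results below was not tested except where a fit with tissue scores is named. In that fit, an epidermis score and an adipocyte score per library entered the model as covariates. The epidermis scores of the DSF and combination libraries did not overlap, so the treatment and skin content cannot be told apart within this comparison.

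**Figure D1:**
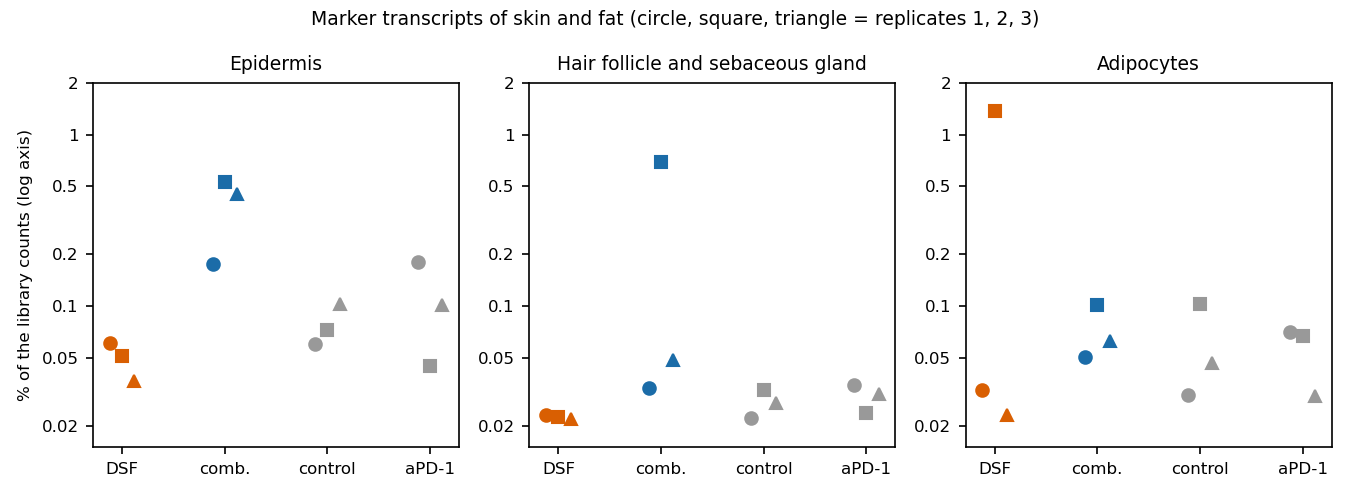
Share of each library's counts (%, log axis) taken by marker genes of epidermis, of hair follicle and sebaceous gland, and of adipocytes; each point is 1 library and the shape gives the replicate number (comb. is the combination, aPD-1 anti-PD-1 alone). DSF replicate 2 stands alone for adipocytes at 1.38%, combination replicate 2 stands alone for hair follicle at 0.688%, and all 3 combination libraries lie above all 3 DSF libraries for epidermis.

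With anti-PD-1 added, 8 MHC class II genes, some interferon-induced genes and 18 epidermal genes rose relative to DSF alone, while 4 neutrophil genes, the metallothionein genes Mt1 and Mt2 and the hypoxia genes Bnip3 and P4ha1 fell. The edgeR quasi-likelihood test with Benjamini-Hochberg adjustment over all genes called 263 of 14144 genes at an adjusted p under 0.05, or 1.86%. Of these, 227 (1.6% of the genes tested) rose and 36 (0.255%) fell. Their median log2 fold change was 3.16 for the higher and -0.81 for the lower genes, while the median of all genes tested was -0.02. In every called gene the 3 combination libraries lay outside the range of the 3 DSF libraries. Such separation was found in 3266 genes, or 23.1% of those tested, with 12.3% higher and 10.8% lower. A positive log2 fold change was found in 46.2% of genes.

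The calls lay close to the threshold, with adjusted p between 0.0387 and 0.0499 for the higher and between 0.0223 and 0.0499 for the lower genes. Without DSF replicate 2 the count rose to 601 genes (4.2% of the genes tested there; 455 higher and 146 lower), of which 211 were among the 263. Without combination replicate 2 the count was 0 by the same edgeR test, with a smallest adjusted p of 0.133 and 1916 genes at an unadjusted p under 0.05, against 2677 with all libraries. Without both, the count was 0 as well, with a smallest adjusted p of 0.113 and 2802 genes at an unadjusted p under 0.05. In each of these fits all 263 genes kept their direction with an unadjusted p under 0.05. This was likely beforehand, because the genes were chosen for a small p in the full fit and these fits reuse most of its libraries. The medians of the called genes without both second replicates were 2.76 for the higher and -0.83 for the lower genes. With only the 6 libraries of the comparison in the edgeR fit, the count was 0 and the smallest adjusted p 0.0527. The count was also 0 without DSF replicate 3, combination replicate 3, control replicate 2 or anti-PD-1 replicate 3. It was 2 without control replicate 1, 7 with the replicate number as a block, 28 without DSF replicate 1, 105 without control replicate 3, 334 without combination replicate 1, and 467 and 454 when the first and the second anti-PD-1 library were left out. DESeq2 called 1170 of the 13986 genes it tested with all libraries, among them all 263. No adjusted p below therefore survived the removal of each library in turn. The DESeq2 counts given for lists below are to be read beside 1170 of 13986. The edgeR counts of genes that rose or fell on a list are to be read beside all genes tested. Of those, 1.6% were called higher and 0.255% lower.

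With the epidermis and adipocyte scores as covariates, edgeR made 0 calls; the smallest adjusted p was 1, and 327 genes had an unadjusted p under 0.05. Of the 227 higher genes, 185 kept their direction and 35 had an unadjusted p under 0.05 in that fit, and their median was 0.60. All 36 lower genes kept their direction, with 8 at an unadjusted p under 0.05 and a median of -0.49.

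**Figure D2:**
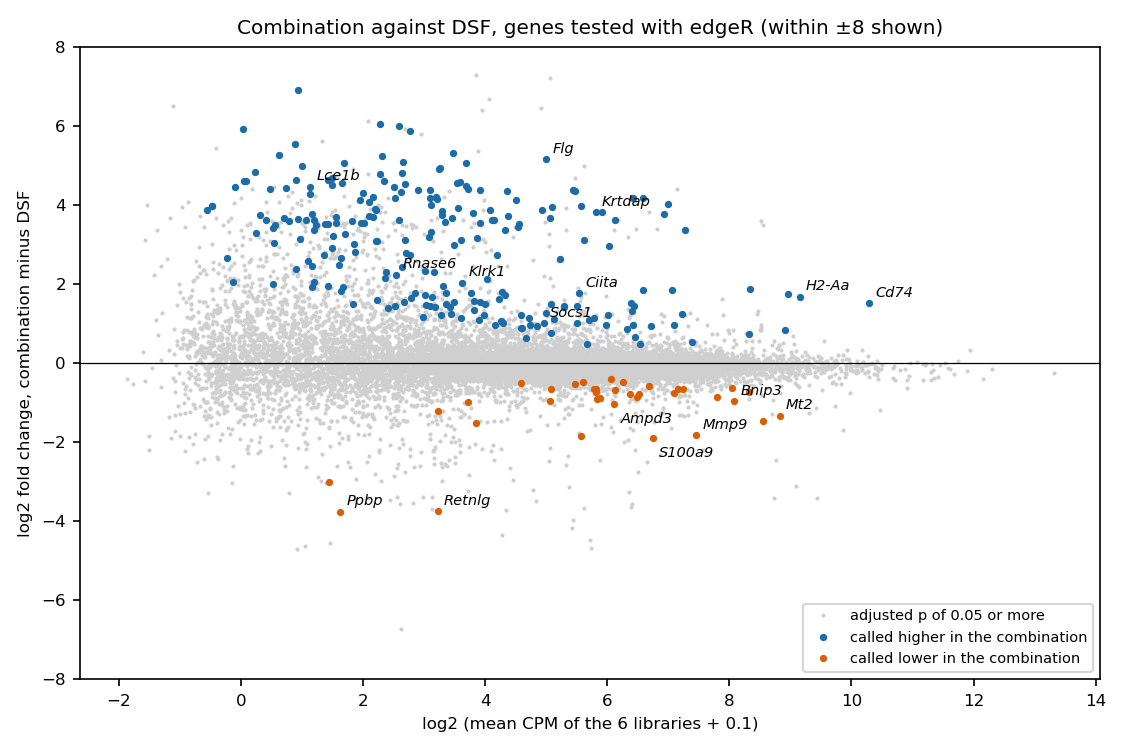
Log2 fold change of the combination minus DSF (vertical axis) against mean level (horizontal axis, log2 of CPM plus 0.1) for the genes tested; coloured points are the 227 higher and 36 lower genes called at an adjusted p under 0.05. The axis ends at 8 either way, beyond which 5 genes are not drawn. The called higher genes extend to a log2 fold change of 6.92 and the lower ones to -3.76.

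Of the 227 higher genes, 34 stood on the epidermis or hair follicle lists or belonged to the Lce, Klk, Krt, Dsc, Dsg or Sprr families of epithelial genes, which were chosen after their values were seen. This was 15%, against 0.65% of all genes tested. On a list of immune cells, signals, antigen presentation or interferon response stood 21 of them, or 9.25%, against 2.06% of all genes tested. None of the 36 lower genes was in the first group and 4 were in the second. Most called genes, 171 of the higher and 27 of the lower ones, were on none of the lists and in none of these families.

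MHC class II genes were led by H2-Aa (gene identifier 14960), which encodes an alpha chain of the presenting molecule. Its level was 331, 208 and 272 CPM in DSF replicates 1, 2 and 3 and 908, 774 and 922 CPM in combination replicates 1, 2 and 3. All combination libraries lay above all DSF libraries, with the lowest value in DSF replicate 2. The log2 fold change was 1.68 ± 0.23 (SE; adjusted p = 0.0387). It was 1.52 without DSF replicate 2, 1.76 without combination replicate 2, 1.60 without both and 1.09 with the tissue scores. Control tumours had a mean of 583 CPM and anti-PD-1 tumours of 498 CPM, so the DSF libraries were below and the combination libraries above both means.

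The transactivator gene Ciita (12265) had 29.2, 16.0 and 17.4 CPM with DSF and 69.8, 72.7 and 72.3 CPM with the combination. The combination libraries agreed closely and each exceeded every DSF library, at a log2 fold change of 1.78 ± 0.26 (adjusted p = 0.0387). Cd74 (16149), the invariant chain that guards the peptide groove, had 782, 479 and 687 CPM with DSF and 1978, 1756 and 1837 CPM with the combination (1.52 ± 0.22, adjusted p = 0.0387). H2-DMa (14998), a subunit of the peptide exchange factor H2-M, had 49.4, 32.4 and 48.5 CPM with DSF and 124, 114 and 135 CPM with the combination (1.51 ± 0.22, adjusted p = 0.0387). Its partner H2-DMb2 (15000) had 10.6, 5.00 and 10.4 CPM against 32.4, 27.4 and 29.9 CPM (1.79 ± 0.27, adjusted p = 0.0387). The groups did not overlap for any of these genes. H2-Ab1 and H2-Eb1, the beta chains, and H2-Ea-ps, annotated as a pseudogene, rose by 1.76 ± 0.25, 1.87 ± 0.26 and 1.84 ± 0.24 on the log2 scale (each adjusted p = 0.0387).

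Of the 14 tested genes on the MHC class II list, 8 rose, none fell and 12 had positive values. The list's median was 1.54 (all genes, -0.02), and 1.38 without DSF replicate 2, 1.67 without combination replicate 2, 1.49 without both and 1.08 with the tissue scores. In the fit with tissue scores all 8 called members kept their direction with an unadjusted p under 0.05. Fewer called members of other lists did so. These were 1 of 5 for interferon gamma, 2 of 4 for type I interferon and 1 of 4 for neutrophils. The count was 0 for the called members of the cytotoxic and NK, checkpoint, hypoxia, metallothionein and glucocorticoid lists. The members with values near 0 were Rfx5, Rfxap and Rfxank, subunits of the constitutive factor that recruits Ciita, at log2 fold changes of 0.00, -0.02 and -0.11. The summed level of the list was 1393 to 2049 CPM in DSF and 4527 to 5147 CPM in combination libraries, against 3216 to 3893 CPM in control and 2428 to 4122 CPM in anti-PD-1 libraries.

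The promoters of MHC class II genes carry a Y box, an inverted CCAAT sequence bound by NF-Y beside the factor that recruits Ciita. The letters CTGATTGG were searched on both strands in the 250 bases before each start in RefSeq's mouse promoter table (GRCm38.p6). They occurred in 3.83% of all 32851 windows and in 5.16% of the windows of genes tested. Among the called MHC class II genes, 5 had a window, and the letters were found in H2-Aa and H2-Eb1. The windows of these genes are shown as those of the called MHC class II genes that hold the letters, in the direction of transcription, with the Y box in capitals. H2-Aa is at chr17:34287824-34288073 on the minus strand and H2-Eb1 at chr17:34305617-34305866 on the plus strand. The first letter of the box lies 51 bases before the start in H2-Aa and 62 bases before it in H2-Eb1. The letters ACAGATG, part of another element called the X box, were searched in the same way. They were found in 1 of the 5 genes, H2-Aa, and in 2.58% of the windows of genes tested.
H2-Aa: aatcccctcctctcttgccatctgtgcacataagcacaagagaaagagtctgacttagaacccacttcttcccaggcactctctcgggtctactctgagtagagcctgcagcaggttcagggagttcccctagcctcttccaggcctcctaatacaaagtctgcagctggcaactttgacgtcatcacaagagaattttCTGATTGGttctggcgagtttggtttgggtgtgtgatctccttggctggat
H2-Eb1: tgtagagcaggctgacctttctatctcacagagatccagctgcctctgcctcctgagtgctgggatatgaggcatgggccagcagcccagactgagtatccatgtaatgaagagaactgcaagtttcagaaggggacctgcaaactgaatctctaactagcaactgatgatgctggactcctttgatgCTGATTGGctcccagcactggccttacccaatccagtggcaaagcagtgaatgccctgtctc

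No MHC class I gene was called. H2-K1 (14972), which encodes a class I heavy chain and shares reads with near-identical class I genes, so that its count is uncertain, had 2191, 1721 and 2497 CPM with DSF and 2307, 1847 and 2419 CPM with the combination. The groups overlapped, with a log2 fold change of 0.04 ± 0.15 (adjusted p = 0.922). H2-D1, with the same uncertainty, was at -0.01 ± 0.14. Of 22 genes on the class I and immunoproteasome list 0 were called by edgeR and 5 by DESeq2, 17 were positive and the median was 0.34. The largest value was that of the peptide transporter gene Tap1 at 0.83. This median was 0.12 without DSF replicate 2, 0.40 without combination replicate 2 and 0.19 without both. With the tissue scores it was 0.52, all 22 genes were positive and H2-K1 was at 0.44.

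Interferon-induced genes had few calls and, with the exception of Nos2, positive values. Ifi44l (15061), an antiviral gene, had 4.45, 4.75 and 3.23 CPM with DSF and 11.4, 12.5 and 15.6 CPM with the combination. Every combination library exceeded every DSF library, at 1.67 ± 0.26 on the log2 scale (adjusted p = 0.0387). The combination mean was close to those of control (11.2 CPM) and anti-PD-1 tumours (11.7 CPM). Gbp8 (76074), a guanylate-binding protein, had 19.9, 12.4 and 20.7 CPM with DSF and 45.5, 49.2 and 55.5 CPM with the combination (1.5 ± 0.26, adjusted p = 0.0409). Socs1 (12703), a feedback inhibitor of interferon gamma signalling, had 20.7 CPM in each DSF library and 38.2, 39.5 and 47.6 CPM in the combination libraries (1.02 ± 0.20, adjusted p = 0.0409). The groups did not overlap for either gene. Serpina3f, a serine protease inhibitor, rose by 1.10 ± 0.21 on the log2 scale (adjusted p = 0.0409).

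On the interferon gamma list 5 of 26 tested genes rose, none fell, and 25 were positive with non-overlapping libraries; 12.3% of all genes tested were separated in that direction. The exception was Nos2, the inducible nitric oxide synthase, at -0.95. The median was 1.06, with 0.89 without DSF replicate 2, 1.04 without combination replicate 2, 0.89 without both and 0.92 with the tissue scores. On the type I interferon list 4 of 32 rose, none fell, all 32 were positive and 27 were separated. Its median was 0.49, with 0.46, 0.48 and 0.47 in the fits without DSF replicate 2, without combination replicate 2 and without both. Summed type I genes were 1648 to 1964 CPM in DSF and 2569 to 2699 CPM in combination libraries. They were 2504 to 3427 CPM in control and 2877 to 3876 CPM in anti-PD-1 libraries. Summed interferon gamma genes were, in the same order, 1524 to 2931, 4245 to 5534, 3622 to 6337 and 3890 to 5605 CPM. Both combination ranges lay within those of control, and the type I range lay below that of anti-PD-1. Irf7 (54123), which amplifies interferon production, had 58.9, 61.7 and 43.4 CPM with DSF and 86.4, 102 and 91.6 CPM with the combination. Its libraries were separated but it missed the threshold, at 0.77 ± 0.20 (adjusted p = 0.0695). Ifng (15978) itself had 1.74, 0.5 and 1.10 CPM with DSF and 3.33, 4.08 and 5.06 CPM with the combination (1.89 ± 0.53, adjusted p = 0.083).

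The core of the interferon-stimulated response element, searched on both strands as a pair of GAAA blocks with any 2 bases between them, is bound by interferon regulatory factors and STAT complexes. It occurred in 2.98% of all promoter windows and in 2.76% of those of genes tested. Of 6 called interferon-list genes with a window it was found in Irgm2, an immunity-related GTPase gene, and Socs1. These are shown as the members of the called interferon genes that hold it, with the matches in capitals. Irgm2 is at chr11:58214727-58214976 on the plus strand, with the match starting 64 bases before the start. Socs1 is at chr16:10785537-10785786 on the minus strand, with overlapping matches starting 83 and 77 bases before the start. Another pattern, the gamma-activated site TTCNNNGAA (N is any base), was searched as well. It was found in 3 of the 6 genes, Ifit2, Irgm2 and Serpina3f, and in 6.04% of the windows of genes tested.
Irgm2: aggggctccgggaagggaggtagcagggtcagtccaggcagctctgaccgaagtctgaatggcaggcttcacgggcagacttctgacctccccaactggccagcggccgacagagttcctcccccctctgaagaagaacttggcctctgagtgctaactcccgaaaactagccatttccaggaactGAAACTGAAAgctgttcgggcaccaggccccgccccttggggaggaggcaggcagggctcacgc
Socs1: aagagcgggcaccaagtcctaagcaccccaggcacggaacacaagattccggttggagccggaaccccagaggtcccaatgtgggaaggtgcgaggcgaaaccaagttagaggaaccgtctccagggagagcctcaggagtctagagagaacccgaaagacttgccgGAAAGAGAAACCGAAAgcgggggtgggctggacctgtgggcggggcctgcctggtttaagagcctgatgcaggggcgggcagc

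On the lists of T, B and cytotoxic lymphocytes the calls were those of 2 receptor genes of NK cells. Klrk1 (27007), which encodes the activating receptor NKG2D, had 7.61, 2.93 and 3.89 CPM with DSF and 19.5, 16.6 and 23.2 CPM with the combination. The groups did not overlap, and the log2 fold change was 2.04 ± 0.40 (adjusted p = 0.0409). Klrb1c (17059), the NK1.1 receptor gene in strains that display that antigen, had 0.968, 0.687 and 0.880 CPM against 3.39, 3.14 and 4.11 CPM (2.06 ± 0.40, adjusted p = 0.0409). Across the 15 tested Klr genes, a family chosen after its values were seen and with close copies, 5 rose and the median was 1.15. Gzmb (14939), granzyme B, had 36.7, 23.5 and 40.5 CPM with DSF and 37.4, 34.1 and 33.8 CPM with the combination, with overlapping groups (0.06 ± 0.30, adjusted p = 0.937). Prf1, perforin, was at 0.09 ± 0.45 (adjusted p = 0.94). On the cytotoxic and NK list 2 of 19 rose, none fell, and the median was 0.81. That median was 0.61 without DSF replicate 2, where 15 of 19 were positive, and 0.93 without combination replicate 2. It was 0.66 without both and 0.76 with the tissue scores, where Klrk1 was at 0.87. Summed levels were 74.3 to 134 CPM in DSF and 150 to 170 CPM in combination libraries. They were 114 to 225 CPM in control and 122 to 147 CPM in anti-PD-1 libraries.

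Cd3e (12501), a chain of the T cell receptor complex, had 4.71, 3.31 and 2.93 CPM with DSF and 6.77, 7.15 and 7.57 CPM with the combination. The libraries were separated and the gene did not pass the test (0.97 ± 0.32, adjusted p = 0.135). On the T cell list 0 of 25 genes were called by edgeR and 9 by DESeq2. All 25 were positive and 19 were separated upward, against 12.3% of all genes tested, with a median of 0.97. That median was 1.02 without DSF replicate 2, 0.90 without combination replicate 2, 0.85 without both and -0.03 with the tissue scores. Summed T cell markers were 99.2 to 121 CPM in DSF and 194 to 261 CPM in combination libraries, against 148 to 164 CPM in control and 125 to 205 CPM in anti-PD-1 libraries. Foxp3 (20371), the regulatory T cell factor, had 4.00, 1.06 and 2.35 CPM with DSF and 6.77, 8.39 and 6.14 CPM with the combination (1.52 ± 0.49, adjusted p = 0.125). Of the 11 regulatory T cell genes none was called by edgeR and 4 by DESeq2, with a median log2 fold change of 1.08 that was -0.17 with the tissue scores. Their summed level was 126 to 176 CPM in DSF and 128 to 149 CPM in combination libraries, so it did not follow the median, and the groups overlapped.

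The target of the antibody, Pdcd1 (18566), had 2.77, 0.812 and 1.32 CPM with DSF and 3.27, 3.87 and 3.63 CPM with the combination. The combination libraries were the higher ones, without passing the test (1.13 ± 0.46, adjusted p = 0.209). An antibody that blocks the protein need not change its transcript, so this is no check of the labels. Cd274 (60533), which encodes PD-L1, had 81.1, 45.0 and 72.7 CPM with DSF and 100, 89.0 and 95.2 CPM with the combination (0.52 ± 0.23, adjusted p = 0.249). On the checkpoint list 1 of 15 genes rose. That gene was Cd86 (12524), a costimulatory ligand of antigen-presenting cells, with 18.7, 12.7 and 19.1 CPM against 28.8, 29.5 and 34.8 CPM (0.88 ± 0.18, adjusted p = 0.0416). Checkpoint genes had a median of 0.77, and of 0.15 with the tissue scores.

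Among myeloid lists, dendritic cell genes included 2 calls of 24, both higher. Siglech (233274), a receptor of plasmacytoid dendritic cells, had 0.516, 0.562 and 0.660 CPM with DSF and 2.92, 3.50 and 4.17 CPM with the combination. The groups were far apart, at 2.59 ± 0.56 (adjusted p = 0.0433), and the value was 0.49 with the tissue scores. The other was H2-DMb2, given above. Over the list the median was 0.78, with 1.10 without DSF replicate 2, 0.70 without combination replicate 2 and 0.25 with the tissue scores. Rnase6 (78416), an antimicrobial ribonuclease of myeloid cells, had 1.87, 2 and 2.13 CPM with DSF and 8.12, 9.55 and 10.7 CPM with the combination (2.24 ± 0.33, adjusted p = 0.0387). Bcl2a1d (12047), a survival gene of leukocytes with near-identical copies, had 9.68, 7.56 and 10.9 CPM against 23, 21.8 and 21.2 CPM (1.23 ± 0.19, adjusted p = 0.0387). Both are among the 12 higher genes with the smallest p, and their groups were separated.

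Macrophage genes were not called (0 of 26 by edgeR, 4 by DESeq2). Csf1r (12978), the receptor for macrophage colony-stimulating factor, had 147, 195 and 85.6 CPM with DSF and 207, 217 and 197 CPM with the combination (0.54 ± 0.28, adjusted p = 0.334). The macrophage median of 0.47 was 0.88 without DSF replicate 2, 0.29 without combination replicate 2 and -0.23 with the tissue scores. Mast cell and eosinophil genes had a larger median, 1.4, again with 0 of 12 called by edgeR and 9 by DESeq2. Mcpt4 (17227), a connective tissue mast cell protease, had 37.0, 30.9 and 21.5 CPM with DSF and 96.8, 59.8 and 133 CPM with the combination (1.70 ± 0.42, adjusted p = 0.0595). The eosinophil receptor genes Siglecf and Ccr3 were the negative members, at -0.79 and -0.12. The list's median was 1.43 without DSF replicate 2, 1.68 without combination replicate 2, 1.73 without both and 0.28 with the tissue scores. B and plasma cell genes had 0 of 12 called by edgeR and 0 by DESeq2, with a median of 0.24 that turned to -0.09 without combination replicate 2 and was 1.03 without DSF replicate 2.

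Chemokines that attract lymphocytes had a median of 1.02 over 16 genes, with 0 called by edgeR and 7 by DESeq2. Cxcl9 (17329) had 168, 49.4 and 131 CPM with DSF and 312, 329 and 430 CPM with the combination (1.62 ± 0.38, adjusted p = 0.0561). Cxcl10 (15945) had 30.8, 11.4 and 19.6 CPM against 47.4, 47.7 and 59.4 CPM (1.32 ± 0.30, adjusted p = 0.0508). Both are ligands of the T cell receptor CXCR3, and DSF replicate 2 was the lowest library for both. Without that library their values were 1.25 (adjusted p = 0.045) and 1.02 (adjusted p = 0.0472). With the tissue scores they were 0.92 and 0.62, and the list's median was 0.34.

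**Figure D3:**
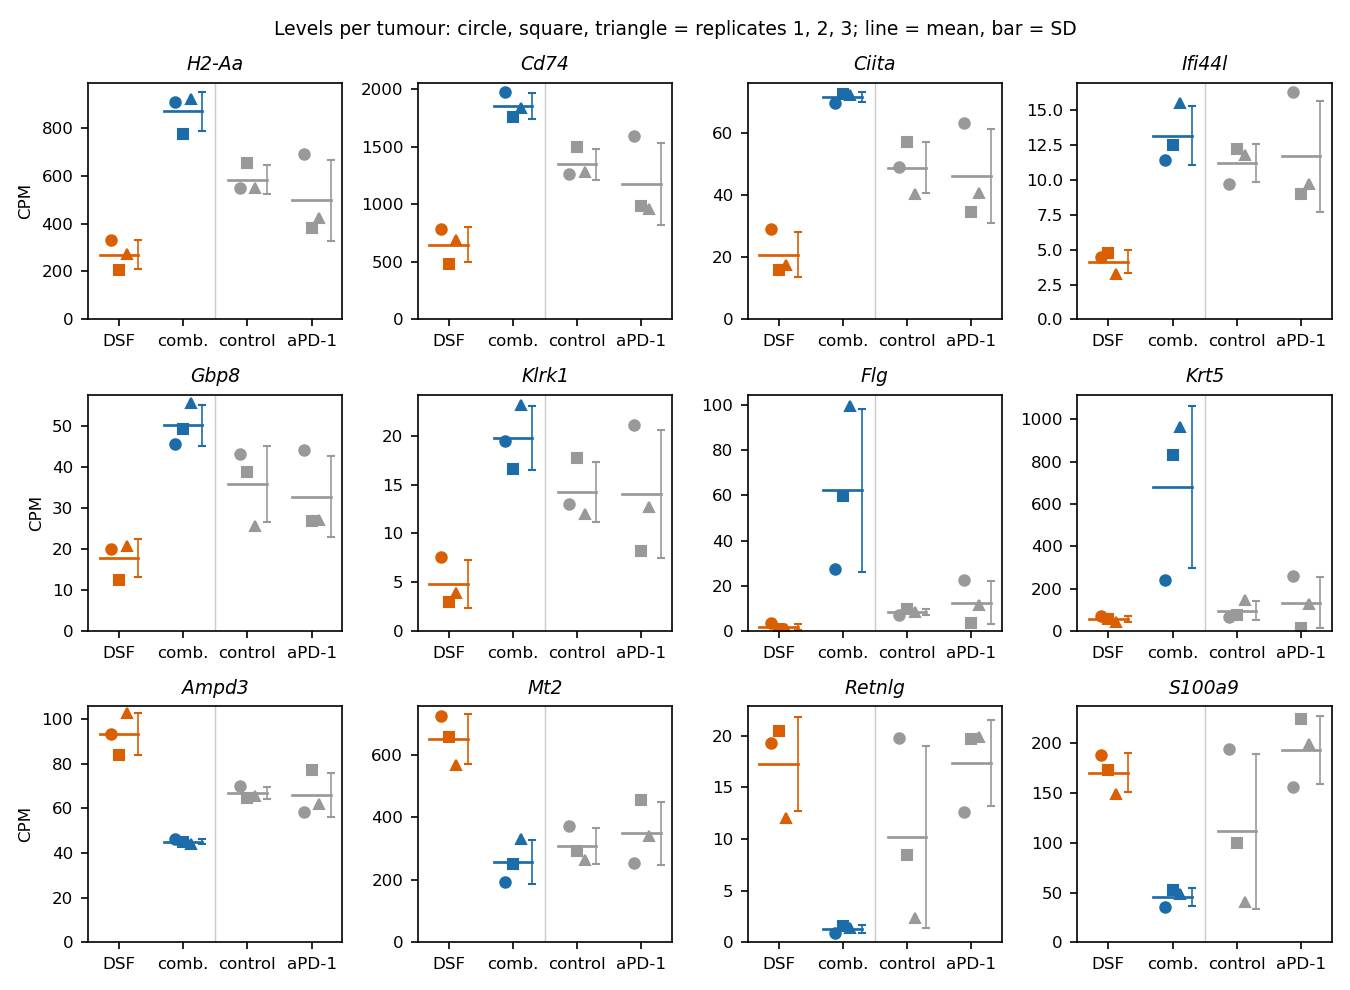
Level in every library (CPM, linear axis from 0) of 12 genes named in the text, in the 4 groups; each point is 1 library, its shape gives the replicate number, the line is the mean and the bar the SD (n = 3). H2-Aa and Ciita are above the DSF range in all combination libraries, S100a9, Retnlg and Mt2 are below it, and Flg, an epidermal gene, is above it.

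Of the neutrophil genes 4 fell and none rose. S100a9 (20202), a subunit of calprotectin, had 188, 173 and 149 CPM with DSF and 35.7, 52.4 and 48.3 CPM with the combination. All combination libraries lay far below all DSF libraries, and the log2 fold change was -1.90 ± 0.43 (adjusted p = 0.0499). Its partner S100a8 (20201) had 76.3, 83.6 and 61.8 CPM against 15.4, 26.0 and 20.9 CPM (-1.84 ± 0.39, adjusted p = 0.0433). Without combination replicate 2 these values were -2.02 and -2.03, and without DSF replicate 2 they were -1.90 and -1.75. Control tumours had means of 111 and 51.7 CPM, and anti-PD-1 tumours 193 and 91.7 CPM.

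Retnlg (245195), a resistin-like secreted protein of neutrophils, had 19.2, 20.5 and 12.0 CPM with DSF and 0.876, 1.60 and 1.37 CPM with the combination. This was the largest separation among the called neutrophil genes, at -3.75 ± 0.64 (adjusted p = 0.0409), and the value was -3.62 without DSF replicate 2, -3.93 without combination replicate 2 and -3.18 with the tissue scores. Mmp9 (17395), a gelatinase stored in neutrophil granules and made by other cells too, had 246, 323 and 254 CPM against 102, 65.5 and 65.9 CPM (-1.82 ± 0.35, adjusted p = 0.0409). The groups did not overlap. On the list 4 of 27 genes fell, none rose, and 22 were negative. The other 5 were positive, with a highest value of 3.56. Separated downward were 12 and upward 2 of the 27, against 10.8% and 12.3% of all genes tested. The list's median was -1.37, with -0.91 without DSF replicate 2, -1.71 without combination replicate 2, -0.91 without both and -1.04 with the tissue scores. Several granule genes had large values without a call, among them Ltf at -2.66, Ngp at -2.46 and Camp at -2.29. Cxcr2 and Csf3r, the receptors that guide and sustain neutrophils, were at -0.51 and -0.65. Summed neutrophil markers were 927 to 1274 CPM in DSF and 522 to 733 CPM in combination libraries, while controls spanned both ranges at 443 to 1253 CPM.

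Ppbp (57349), a CXCR2 ligand released by platelets, and Prok2 (50501), a secreted protein made by neutrophils among other cells, also fell. Ppbp had 1.55, 10.1 and 5.13 CPM with DSF and 0.526, 0.583 and 0.119 CPM with the combination (-3.76 ± 0.71, adjusted p = 0.0409). Its value was -3.02 without DSF replicate 2, the highest library. Prok2 had 5.87, 3.81 and 4.33 CPM against 0.467, 0.729 and 0.536 CPM (-3.01 ± 0.60, adjusted p = 0.0412). Other inflammatory cytokines and CXCR2 ligands had 0 of 20 called by edgeR and 4 by DESeq2, with a median of -0.37. Of the 20, 14 were negative and 6 positive, with a highest value of 1.29. Separated downward were 7 and upward 1, against 10.8% and 12.3% of all genes tested. Their summed level was 804 to 1451 CPM in DSF and 662 to 805 CPM in combination libraries, and 502 to 1295 CPM in controls. The ligand genes Cxcl1, Cxcl2, Cxcl3 and Cxcl5 were at -1.61, -1.67, -2.52 and -1.54, and Il1b (16176) had 181, 78.4 and 163 CPM against 116, 127 and 109 CPM, with overlapping groups (-0.26 ± 0.39, adjusted p = 0.764).

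The smallest p of the comparison belonged to Ampd3 (11717), an AMP deaminase of erythrocytes and other cells. It had 93.4, 83.7 and 103 CPM with DSF and 46.5, 45.0 and 44.0 CPM with the combination. The libraries of each group lay close together and the groups far apart, at -1.05 ± 0.11 (adjusted p = 0.0223). The value was -1.13 without DSF replicate 2, -1.04 without combination replicate 2, -1.12 without both and -0.64 with the tissue scores. Mxi1 (17859), an antagonist of Myc, had 105, 100 and 109 CPM with DSF and 58.2, 62.4 and 62.9 CPM with the combination (-0.78 ± 0.12, adjusted p = 0.0387). Dll4 (54485), a Notch ligand of sprouting endothelium, had 10.5, 15.0 and 13.4 CPM against 5.20, 5.54 and 5.96 CPM (-1.22 ± 0.21, adjusted p = 0.0409). Both genes had separated groups, and without both second replicates their values were -0.82 and -1.10. Further genes among the 12 lower ones with the smallest p were Papln at -1.51 ± 0.26, Klhl24 at -0.91 ± 0.17, Slc27a1, a fatty acid transporter gene, at -0.76 ± 0.14, Cep170 at -0.66 ± 0.11 and Sccpdh at -0.66 ± 0.12.

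Metallothioneins are small proteins that bind zinc and copper, and the genes of 2 of them fell. Mt2 (17750) had 725, 657 and 566 CPM with DSF and 192, 250 and 331 CPM with the combination. Mt1 (17748) had 656, 557 and 449 CPM against 159, 195 and 246 CPM. In both genes DSF replicate 3 was the lowest DSF library and combination replicate 3 the highest combination library, and the groups stayed apart. The log2 fold changes were -1.33 ± 0.24 for Mt2 and -1.47 ± 0.28 for Mt1 (each adjusted p = 0.0409), and -0.88 and -0.89 with the tissue scores. The means of control tumours were 309 and 245 CPM and those of anti-PD-1 tumours 349 and 290 CPM, so DSF tumours stood above the other groups. On the list of metal handling genes 2 of 16 fell, none rose, and the median was -0.32.

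All 28 hypoxia and glycolysis genes had negative values in the fit without tissue scores, where 46.2% of all genes were positive. Bnip3 (12176), a hypoxia-induced mitophagy receptor, had 368, 338 and 367 CPM with DSF and 199, 144 and 203 CPM with the combination (-0.97 ± 0.21, adjusted p = 0.0433). P4ha1 (18451), a collagen prolyl hydroxylase, had 284, 268 and 311 CPM against 190, 134 and 155 CPM (-0.85 ± 0.18, adjusted p = 0.0453). These were the 2 called members, and neither group pair overlapped, but with the tissue scores their values were -0.28 and -0.01. Slc2a1 (20525), the glucose transporter GLUT1, had 669, 413 and 586 CPM against 336, 218 and 310 CPM and missed the threshold (-0.95 ± 0.28, adjusted p = 0.0956). The list's median was -0.47, and 20 of its genes were separated downward, against 10.8% of all genes tested. The median was -0.53 without DSF replicate 2, -0.38 without combination replicate 2 and -0.43 without both. With the tissue scores it was -0.13, and 7 of the 28 genes were positive. Ddit4 (74747), an inhibitor of mTOR induced by hypoxia and glucocorticoids, had 44.1, 40.7 and 47.1 CPM with DSF and 19.6, 24.4 and 23.4 CPM with the combination (-0.97 ± 0.19, adjusted p = 0.0416), and was at -0.41 with the tissue scores. It and Mt2 were the 2 of 14 genes on the glucocorticoid list that fell, while Fkbp5 and Tsc22d3, induced by glucocorticoids in many tissues, were at -0.10 and 0.01. The median of that list was -0.46.

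Genes of skin rose as well. Flg (14246), filaggrin of the cornified layer, had 3.36, 0.812 and 1.03 CPM with DSF and 27.6, 59.5 and 99.6 CPM with the combination. The lowest combination library was several times above the highest DSF library, at a log2 fold change of 5.15 ± 0.77 (adjusted p = 0.0387). Krtdap (64661), a keratinocyte differentiation protein, had 9.94, 9.05 and 3.15 CPM against 63.1, 95.1 and 156 CPM (3.82 ± 0.65, adjusted p = 0.0409). Krt5 (110308), a keratin of basal epidermis, had 71.8, 55.6 and 41.1 CPM against 243, 833 and 964 CPM and missed the threshold (3.60 ± 0.83, adjusted p = 0.052). Krt79 (223917), a keratin of the hair follicle and sebaceous duct, had 4.13, 7.49 and 2.79 CPM against 33.4, 99.1 and 53.4 CPM (3.68 ± 0.79, adjusted p = 0.0433). With the tissue scores as covariates, whose epidermis score was built from such genes, Flg was at 1.92, Krtdap at 0.89, Krt5 at -1.33 and Krt79 at 0.01.

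Of the 34 epidermis genes 18 rose, none fell and 33 were positive, with a median of 3.61. The median was 3.96 without DSF replicate 2, 3.05 without combination replicate 2 and 3.31 without both. On the hair follicle and sebaceous list 13 of 24 genes were tested, 1 rose, and the median of 3.47 was 2.53 without combination replicate 2. Among families chosen after their values were seen, 11 of 15 tested Lce genes, which encode late cornified envelope proteins and are close copies, rose with a median of 4.63, as did 3 of 10 Klk peptidase genes (median 3.69) and 4 of 7 desmosomal Dsc and Dsg genes (median 3.96). None of the 6 tested Sprr genes was called, at a median of 3.32. Of 21 tested keratin (Krt) genes 2 rose, none fell and 16 were positive. Separated upward were 15 and downward 3 of the 21, against 12.3% and 10.8% of all genes tested. Keratin values ran from -2.62 to 7.21, with a median of 3.29. Lce1b (68720) had 0.194, 0.250 and 0.0733 CPM with DSF and 2.22, 4.67 and 5.24 CPM with the combination, so its fold change rests on few counts in DSF.

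The list of tumour epithelium included 2 genes that rose, Ovol1 and Esrp1, and a median of 0.08 over 18 genes. Both are also expressed in epidermis, and Ovol1 stands on the epidermis list as well. Esrp1 (207920), a splicing regulator of epithelial cells, had 2, 3.81 and 1.25 CPM with DSF and 8.82, 49.6 and 25.0 CPM with the combination (3.55 ± 0.77, adjusted p = 0.0453). Its highest library was combination replicate 2, and with the tissue scores the value turned to -0.44. Krt8 (16691), a keratin abundant in 4T1 tumours here, had 698, 654 and 586 CPM with DSF and 669, 401 and 660 CPM with the combination (-0.16 ± 0.19, adjusted p = 0.688). Genes of epithelial-mesenchymal transition had 0 of 17 called by edgeR and 3 by DESeq2, with a median of -0.16.

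**Figure D4:**
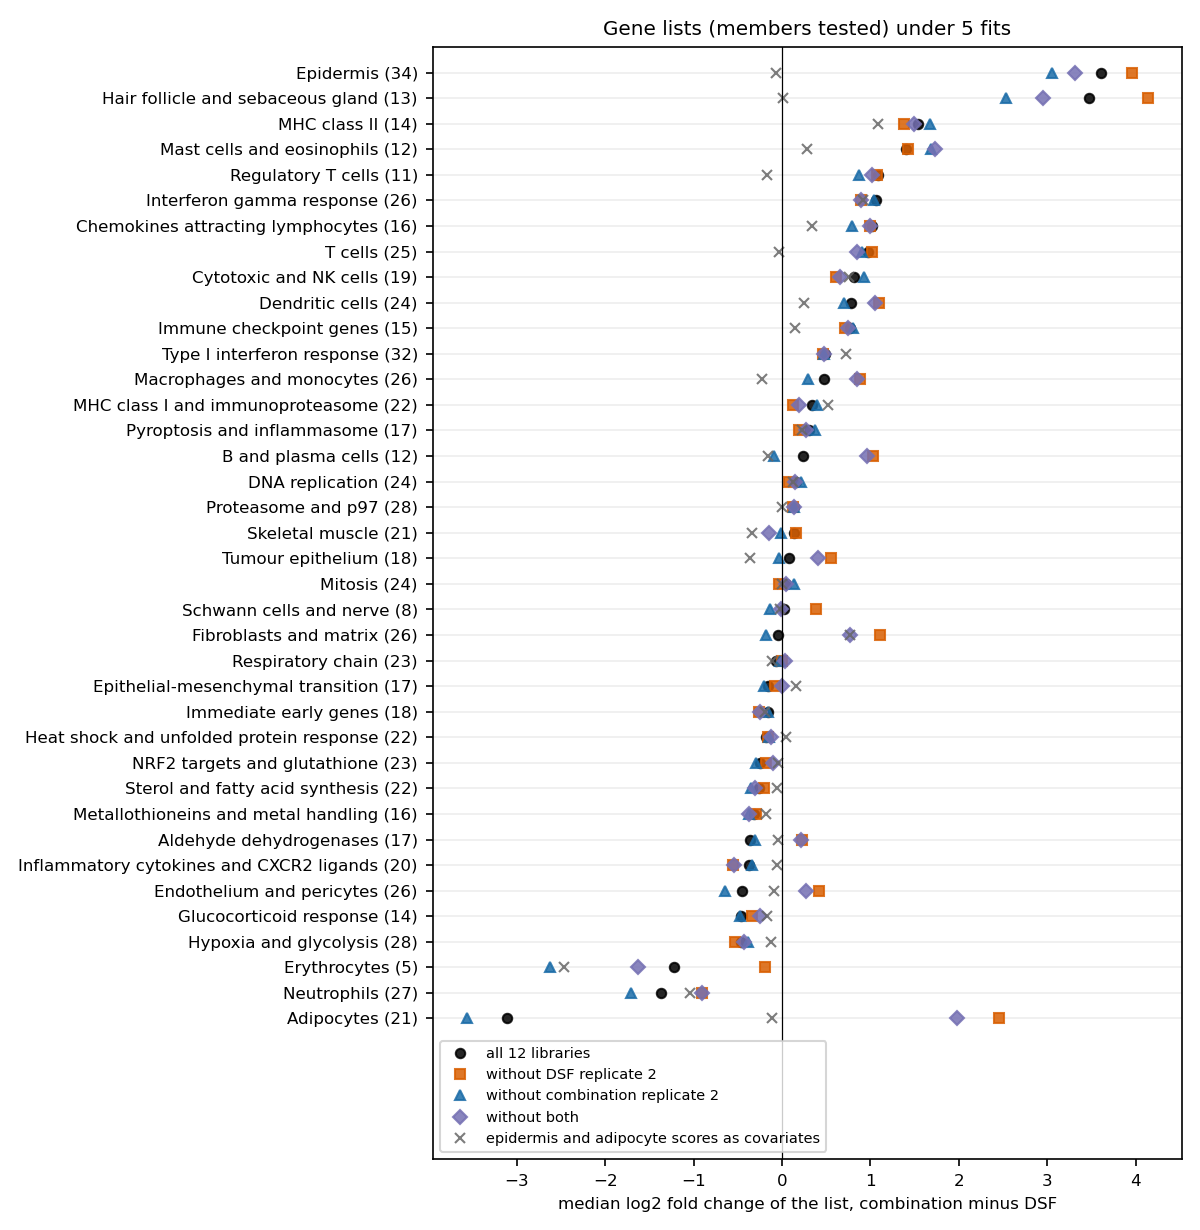
Median log2 fold change (combination minus DSF, horizontal axis) of the tested members of each gene list, whose number is in parentheses, in 5 fits. MHC class II stays between 1.08 and 1.67 in all 5. Epidermis is at 3.61 with all libraries and at -0.07 with the tissue scores. Those scores are built from the epidermis and adipocyte lists themselves, so the medians of these lists in that fit follow by construction. Adipocytes turn from -3.11 to 2.45 without DSF replicate 2.

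Stromal lists depended on DSF replicate 2. Adipoq (11450), the adipocyte hormone adiponectin, had 1.81, 465 and 0.807 CPM with DSF and 5.96, 18.5 and 13.2 CPM with the combination. Its log2 fold change was -3.64 ± 1.76 with all libraries (adjusted p = 0.291) and 3.23 without DSF replicate 2 (adjusted p = 0.103). The adipocyte list had 0 of 21 called by edgeR and 0 by DESeq2, and its median turned from -3.11 to 2.45 without that library. Col1a1 (12842), the main fibrillar collagen gene, had 173, 2178 and 606 CPM against 712, 1298 and 827 CPM, at -0.06 ± 0.72 with all libraries (adjusted p = 0.974) and 1.27 without DSF replicate 2 (adjusted p = 0.196). The fibroblast list, with 0 of 26 called by edgeR and 1 by DESeq2, moved from a median of -0.05 to 1.11. The endothelium and pericyte list, with 0 of 26 called by either tool, moved from -0.45 to 0.42. No direction can therefore be given for adipocyte, fibroblast or endothelial genes. Erythrocyte genes had a median of -1.22 over 5 genes, none called by edgeR or DESeq2, with -0.19 without DSF replicate 2. Skeletal muscle genes had a median of 0.13, and Schwann cell genes one of 0.02 over 8 genes that was 0.38 without DSF replicate 2 and -0.14 without combination replicate 2.

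Proliferation genes had values close to 0. All 24 DNA replication genes were positive, with a median of 0.16 and 0 called by edgeR and 1 by DESeq2. Mcm2 (17216), a subunit of the replicative helicase, had 152, 133 and 145 CPM with DSF and 173, 154 and 175 CPM with the combination (0.22 ± 0.09, adjusted p = 0.214). Mitosis genes had a median of 0.05 over 24 genes, none called by edgeR or DESeq2, and Mki67, the proliferation antigen, was at -0.02 ± 0.16 (adjusted p = 0.96).

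Pathways linked to DSF were given the same comparison. Aldehyde dehydrogenase genes had 0 of 17 called by edgeR and 3 by DESeq2, and a median of -0.36 that turned to 0.22 without DSF replicate 2. Aldh2 (11669), the mitochondrial enzyme that disulfiram inhibits, had 177, 280 and 168 CPM with DSF and 143, 139 and 135 CPM with the combination (-0.59 ± 0.20, adjusted p = 0.147). Proteasome and p97 genes had a median of 0.14 over 28 genes, with 0 called by edgeR and 0 by DESeq2, and pyroptosis and inflammasome genes one of 0.31 over 17, with 0 called by edgeR and 3 by DESeq2. Gsdmd (69146), the pore-forming gasdermin D, had 59.1, 46.8 and 61.2 CPM against 71.1, 64.2 and 72.5 CPM (0.31 ± 0.16, adjusted p = 0.329). NRF2 target and glutathione genes had a median of -0.25, with 0 of 23 called by edgeR and 4 by DESeq2. Within that list Hmox1 (15368), heme oxygenase 1, had 198, 221 and 208 CPM with DSF and 98.0, 107 and 117 CPM with the combination, with separated groups and an adjusted p of 0.0721 (-0.96 ± 0.26). Heat shock and unfolded protein response genes had a median of -0.18, with 0 of 22 called by edgeR and 4 by DESeq2. The medians of the remaining lists were -0.07 for the respiratory chain, -0.26 for sterol and fatty acid synthesis and -0.16 for immediate early genes, with no edgeR call in any of them and 0, 0 and 4 DESeq2 calls.

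Whether the change that came with anti-PD-1 differed between DSF-treated and other mice was tested by the interaction, the change from DSF to the combination minus the change from control to anti-PD-1. By edgeR, 0 of 14144 genes (0%) passed; the smallest adjusted p was 0.232, 1754 genes had an unadjusted p under 0.05, and 235 passed by DESeq2. Without DSF replicate 1 edgeR called 4 genes and without anti-PD-1 replicate 1 it called 19. H2-Aa had an interaction of 1.91 ± 0.32 (adjusted p = 0.232), Ampd3 of -1.02 ± 0.16 (adjusted p = 0.232) and Retnlg of -4.52 ± 0.84 (adjusted p = 0.258). For Ifit2, an interferon-induced gene that rose by 0.90 ± 0.17 with the combination, the interaction was 0.24 ± 0.24 (adjusted p = 0.723). The median interaction was 1.78 for the MHC class II list, 0.17 for the type I interferon list, 1.19 for the interferon gamma list and -1.16 for neutrophil genes, and -0.02 over all genes. These changes are thus not shown to be particular to DSF-treated mice.

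**Figure D5:**
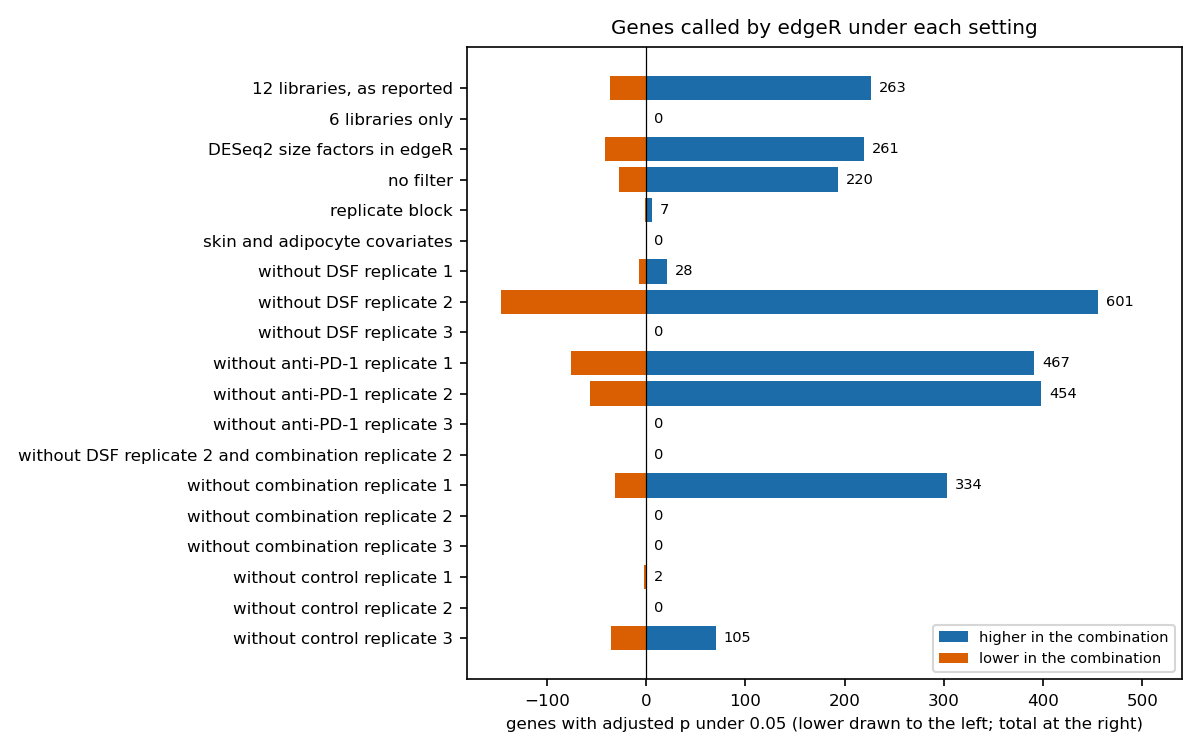
Number of genes called by edgeR at an adjusted p under 0.05 for the combination against DSF under each setting, with lower genes to the left of 0 and higher genes to the right. The DESeq2 count of 1170 is not drawn. The edgeR count spans 0 to 601 over the fits that leave out 1 library.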

How the data were processed

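RNA was read from 12 tumours with BGISEQ-500. The deposited gene table holds expected counts, estimated by the authors per gene and library, of which 9.02% are not whole, and FPKM values by the authors, which were not tested here. RSEM 1.2.12, HISAT2 2.0.4, DESeq2 1.4.5 and Bowtie2 2.2.5 are named per the submitters' processing notes, without their roles; the genome build and strandedness are not given in the sources used here, so reads of a gene and an overlapping antisense gene cannot be told apart. Table columns were matched to titles by the deposited group plan (p for anti-PD-1) and by number, with the control column ending in 11 read as control 1. A transcript table and 12 further per-sample columns of the series were not used here. Mitochondrially encoded transcripts were not analysed here.

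Expected counts were rounded, filtered with filterByExpr on the 4 groups, scaled by TMM and fitted with edgeR 4.0.16 (quasi-likelihood, two-sided, all 12 libraries, 1 mean per group) in R 4.3.3. P-values were adjusted by Benjamini-Hochberg over 14144 genes and called under 0.05. Levels are CPM, counts scaled to a common library size, on TMM-scaled library sizes, with n = 3 per group. Errors of log2 fold changes are SE derived from the test, the absolute log2 fold change over the square root of the F statistic. They rest on the spread estimated over all 12 libraries. Values in the text without an adjusted p are descriptions. Lists are summarised by counts and medians without a set test. With 3 against 3, an exact permutation test of 1 value cannot go below 0.1 and was not used. Counts were simulated for the combination against DSF on 14144 genes. Of the genes changed 1.5-fold, 2-fold and 4-fold, 14.9%, 67.2% and 97% were recovered, and 6.3% of calls were false. The changes were placed only in genes above a minimum mean level, and no library was made to stand apart by skin or fat. These rates need not hold for genes with few counts or for the libraries used here. Alternatives were DESeq2 1.42.0, its size factors in edgeR, no filter, the 6 libraries alone, a replicate block, tissue scores as covariates, and each library left out.

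The comparison, the 38 gene lists and the tests were chosen with earlier results of these data known. The genes named are the 12 higher and 12 lower ones with the smallest p, the first 2 tested members of each list with up to 3 further called members, Pdcd1 and Cd274. Tap1, Nos2, Rfx5, Rfxap, Rfxank, Siglecf, Ccr3, Ltf, Ngp, Camp, Cxcr2, Csf3r, Prok2, Cxcl1, Cxcl2, Cxcl3, Cxcl5 and Irgm2 were added after their values were seen. The text gives a selection of the 115 genes that the rule names. Some genes are not reported here.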

Additional observations from a re-analysis of the deposited data

How the results depend on the processing

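The count of 263 called genes (227 higher, 36 lower) was 1170 (777 and 393) with DESeq2, 7 (6 and 1) with the replicate block, 0 (0 and 0) with the 6 libraries alone, 0 with the tissue scores and 0 without DSF replicate 2 and combination replicate 2 together. Leaving out 1 library gave 0 to 601 calls, 0 to 455 higher and 0 to 146 lower. With DESeq2 size factors edgeR called 261 genes, 256 of them shared, and without a filter 220, 218 shared. The interaction count of 0 was 235 with DESeq2 and 0 to 19 without 1 library. Genes with non-overlapping libraries numbered 3266, 4214 without combination replicate 2, 6524 without DSF replicate 2 and 7613 without both second replicates; smaller groups overlap less by construction. The log2 fold change of Esrp1 (3.55) was -0.44 with the tissue scores; the cause was not tested. The main fit treated the libraries as unpaired. The deviations of libraries of the same number correlated at r = 0.174, 0.383 and 0.0421, and those of different numbers at r from -0.329 to 0.26. These values do not settle whether replicate numbers pair the libraries. Over all alternatives, named genes lost a call in 502 fits and gained one in 32. Of 46 called genes named by the rule, Esrp1 was the 1 to change sign; of 69 not called, 40 did so in at least 1 fit, 28 with the tissue scores (Krt5, Krt14, Krt17 and Epcam among them) and 11 without DSF replicate 2 (Adipoq, Plin1 and Aldh1a1 among them).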

Other observations

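The called genes also had an order across the 4 groups. In 212 of the 227 higher genes and 28 of the 36 lower genes, the mean levels of control and of anti-PD-1 tumours both lay between those of DSF and combination tumours, which was so in 4030 of all 14144 genes tested (28.5%). These genes were chosen for a large difference between the outer groups, so the shares are a description without a test. Among the 227 higher genes the highest combination library was replicate 2 in 143, replicate 3 in 65 and replicate 1 in 19.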
